A study of Mus musculus with 6 samples.

Results

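The genes described here encode proteins that write, read, erase or remodel chromatin. They were chosen by name, and earlier results of these data were known when the names were picked. The rule took every gene whose single platform symbol starts with Hdac, Kdm, Kmt, Smarc, Cbx, Dnmt, Ezh or Setd, or Chd and a digit. Uhrf1, Hells, Suz12, Eed, Chaf1a, Chaf1b, Asf1a and Asf1b were added singly. The arrays held 72 such genes of 12393 named ones, on 134 probe sets. Where a gene had several, the one with the highest mean over the arrays stood for it. Chaf1a had no probe set of its own name in the annotation used here. Of the 72 genes, 62 reached log2 4 on 3 or more arrays and were tested.

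The study used 3 mouse cell lines, KPR4, KPR5 and KPR8, derived from adenocarcinomas in a study of lung cancer, on the strain background C57/B6-129SvJae. Each line gave 1 array of cells treated with 250 nM 4-OH tamoxifen for 24 h and 1 array of cells given the ethanol vehicle, 6 arrays in all. According to the labels the drug switches p53 expression back on in these cells, so both arms are the same cells and differ in the drug. A line in which the drug does not act on p53 was not analysed here, so effects of the drug and of p53 cannot be told apart. Levels are GCRMA log2 values, and a change is the treated minus the ethanol value.

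DNA methylation and histone marks have to be rebuilt behind each replication fork. Uhrf1 recognises newly copied, hemimethylated DNA and recruits the maintenance methyltransferase Dnmt1, while the chaperones Asf1a and Asf1b hand new histones to the assembly factor that contains Chaf1b. Polycomb repressive complex 2, built on the methyltransferase Ezh2 with Suz12 and Eed, writes a repressive histone mark that chromobox proteins of the Cbx family read. Remodelling ATPases of the SWI/SNF, ISWI and CHD families slide or evict nucleosomes. Several of these genes belong to programmes driven by E2F factors in cycling cells, and p53 is known to shut such programmes down through p21.

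The promoters of 6 of the genes that fell are shown because they hold letters of elements known from cell-cycle promoters, those bound by E2F factors and the CHR. Windows from 250 bases before to 50 bases after each annotated start came from RefSeq on GRCm38.p6, and 62 of the 72 genes matched at least 1 window. The stretches printed run 5′ to 3′ on the gene's strand and end 30 bases after the start. Capitals mark E2F words, spelled TTTCCCGC, TTTCGCGC, TTTGCCGC or TTTGGCGC, and the CHR word TTTGAA, on either strand. The first line is the second Uhrf1 start, at chr17:56304063-56304342 on the plus strand, with an E2F word beginning 185 bases before the start. The Dnmt1 line, at chr9:20952594-20952873 on the minus strand, has one 219 bases before the start, and another begins 33 bases after it, past the printed end. The Hells stretch, at chr19:38930740-38931019 on the plus strand, has its word 62 bases before the start. That of Ezh2, at chr6:47595001-47595280 on the minus strand, begins 3 bases after the start. The Suz12 stretch, at chr11:79992856-79993135 on the plus strand, holds an E2F word 219 bases and a CHR word 203 bases before the start. The Asf1b stretch, at chr8:83955444-83955723 on the plus strand, holds no E2F word as spelled here and a CHR word 14 bases before the start. Another Dnmt1 window, at chr9:20959839-20960138 on the minus strand, is not printed. It holds no E2F word and a CHR word 199 bases before its start.
Uhrf1: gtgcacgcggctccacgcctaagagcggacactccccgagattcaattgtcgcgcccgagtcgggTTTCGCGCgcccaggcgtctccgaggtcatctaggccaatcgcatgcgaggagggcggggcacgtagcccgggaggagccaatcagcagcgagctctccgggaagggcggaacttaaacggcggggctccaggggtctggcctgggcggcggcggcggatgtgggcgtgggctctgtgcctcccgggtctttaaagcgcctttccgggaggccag
Dnmt1: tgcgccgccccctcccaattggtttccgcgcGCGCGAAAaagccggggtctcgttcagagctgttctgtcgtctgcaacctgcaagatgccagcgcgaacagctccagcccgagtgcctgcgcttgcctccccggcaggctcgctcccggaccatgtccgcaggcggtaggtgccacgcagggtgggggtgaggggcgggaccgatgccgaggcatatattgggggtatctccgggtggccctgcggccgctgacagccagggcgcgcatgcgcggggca
Hells: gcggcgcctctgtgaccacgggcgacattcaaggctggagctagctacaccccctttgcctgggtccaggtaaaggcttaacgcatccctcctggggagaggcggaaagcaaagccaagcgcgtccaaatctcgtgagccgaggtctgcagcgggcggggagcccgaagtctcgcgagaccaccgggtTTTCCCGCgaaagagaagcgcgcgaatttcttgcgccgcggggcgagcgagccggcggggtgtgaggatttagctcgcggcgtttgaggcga
Ezh2: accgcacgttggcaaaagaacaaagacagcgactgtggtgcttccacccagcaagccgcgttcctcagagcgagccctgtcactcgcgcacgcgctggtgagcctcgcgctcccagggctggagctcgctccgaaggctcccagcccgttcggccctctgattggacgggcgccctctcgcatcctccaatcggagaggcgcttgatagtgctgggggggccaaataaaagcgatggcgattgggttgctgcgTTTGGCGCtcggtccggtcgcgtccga
Suz12: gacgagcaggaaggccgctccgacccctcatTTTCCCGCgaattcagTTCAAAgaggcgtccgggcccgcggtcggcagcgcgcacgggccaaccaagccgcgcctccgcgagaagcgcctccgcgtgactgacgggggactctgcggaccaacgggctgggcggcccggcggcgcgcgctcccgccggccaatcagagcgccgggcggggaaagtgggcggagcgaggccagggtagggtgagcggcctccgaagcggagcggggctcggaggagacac
Asf1b: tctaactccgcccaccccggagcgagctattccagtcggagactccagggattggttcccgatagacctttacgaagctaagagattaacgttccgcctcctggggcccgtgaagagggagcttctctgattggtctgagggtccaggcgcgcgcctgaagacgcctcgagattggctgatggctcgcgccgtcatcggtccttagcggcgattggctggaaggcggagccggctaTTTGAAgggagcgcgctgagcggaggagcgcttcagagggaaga

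An E2F word stood in a window of 5 of the 10 fallen genes that had a window, namely Uhrf1, Dnmt1, Hells, Ezh2 and Suz12. It stood in 2 of 42 tested chromatin genes that were not called, Cbx3 and Kmt5c. Of all 32851 windows 2.26% held such a word. By gene, the share was 4.95% of the 6261 tested genes with a window and 12.5% of the 577 genes lower with the drug. The CHR word was in 3 of the 10 fallen genes and 6 of the 42 others. By gene, it was in 14.4% of the tested genes and 21.0% of those lower with the drug, and by window in 17.9%. The NF-Y word CCAAT, also sought on both strands, was in 7 of the 10 and 18 of the 42. Its shares were 43.1% of the tested genes, 48.7% of those lower with the drug and 37.4% of all windows. A pair of p53 decamers up to 13 bases apart was found in 0 windows of these genes and in 0.0731% of all windows. The words were picked with the array results known, so these shares are a description. A match is not a bound site, and the absence of a match says only that these letters are not in the window.

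**Figure D1:**
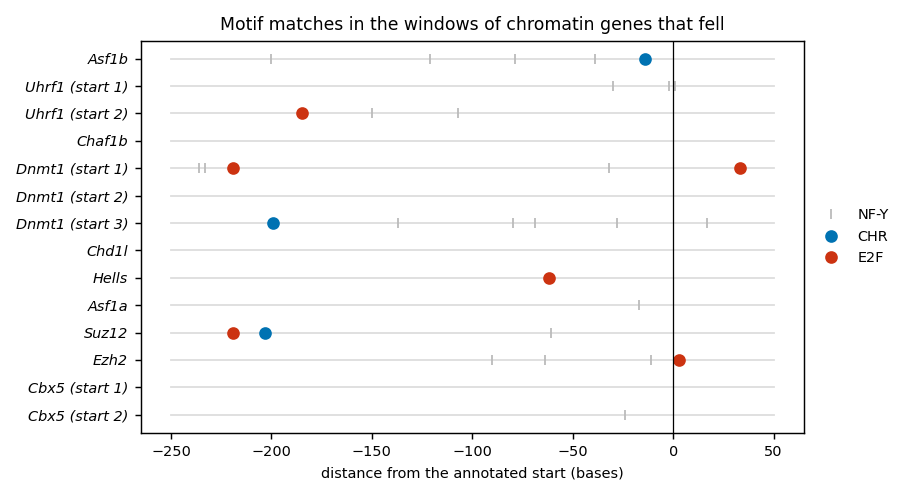
Positions of E2F (red), CHR (blue) and NF-Y (grey) words in the promoter windows of the 10 fallen genes with a window, in bases from each annotated start; genes with several starts have a row for each. E2F words stand between 219 bases before and 33 bases after a start in 5 genes.

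With the drug, 11 of the 62 tested chromatin genes fell and 0 rose in the limma fit at an adjusted p under 0.05. That is 17.7% lower, where 8.94% of all 7644 tested genes were lower and 10.5% were higher. At an unadjusted p under 0.05 the same fit had 16 chromatin genes lower and 2 higher. The shares of all genes at that unadjusted threshold were not counted, so these counts cannot be set against them. Beyond the 11, the genes were Setd6, Kdm8, Chd8, Kdm1a and Setdb1 on the lower side and Kdm5b and Kdm5d on the higher. The falls were of moderate size, and only 3 of the 11 reached log2 1. The median change of the 62 was -0.11, against 0.00 for all genes tested. All 11 fell in each of the 3 lines, which a call in this fit favours. Of all 62 tested chromatin genes, 22 were lower in each line and 7 were higher in each. The matching shares of all genes were not counted, so these counts are a description. By role, all 6 measured genes of replication-coupled assembly and maintenance methylation fell, and 5 of the 56 others, 8.93%, which is close to the share of all genes. The genes and role lists were chosen with earlier results of these data known, so this split is a description.

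The count depended on the number of lines. It was 5 without KPR4, 7 without KPR5 and 7 without KPR8, while the share of all tested genes called lower went to 5.73%, 5.97% and 5.49%. Without the line term in the model it was 0, and 1 of all 7644 genes was lower. It was 6 when the arrays were scaled to ribosomal protein genes, a scaling under which 437 of all genes were lower and 899 higher, against 683 and 805. Of 28 tested chromatin genes with several probe sets past the filter, 11 had one whose change had the opposite sign, among them Asf1a of the fallen genes and Kdm6a (0.28 and -0.29), Chd1 (0.17 and -0.41) and Kmt2e (0.07 and -0.21) of those not called. Asf1b, Uhrf1, Chaf1b and Dnmt1 were called under 10 of 11 other settings each, all but the one without the line term. Cbx2 passed the filter only through its ethanol arrays, as did Dnmt3b, which was not called. Such a gene is likelier to appear lower, so the count of tested genes is no unbiased sample. Without the filter, 8 of the 72 chromatin genes were lower and 1 higher, where 565 of all 12393 genes (4.56%) were lower and 716 higher.

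**Figure D2:**
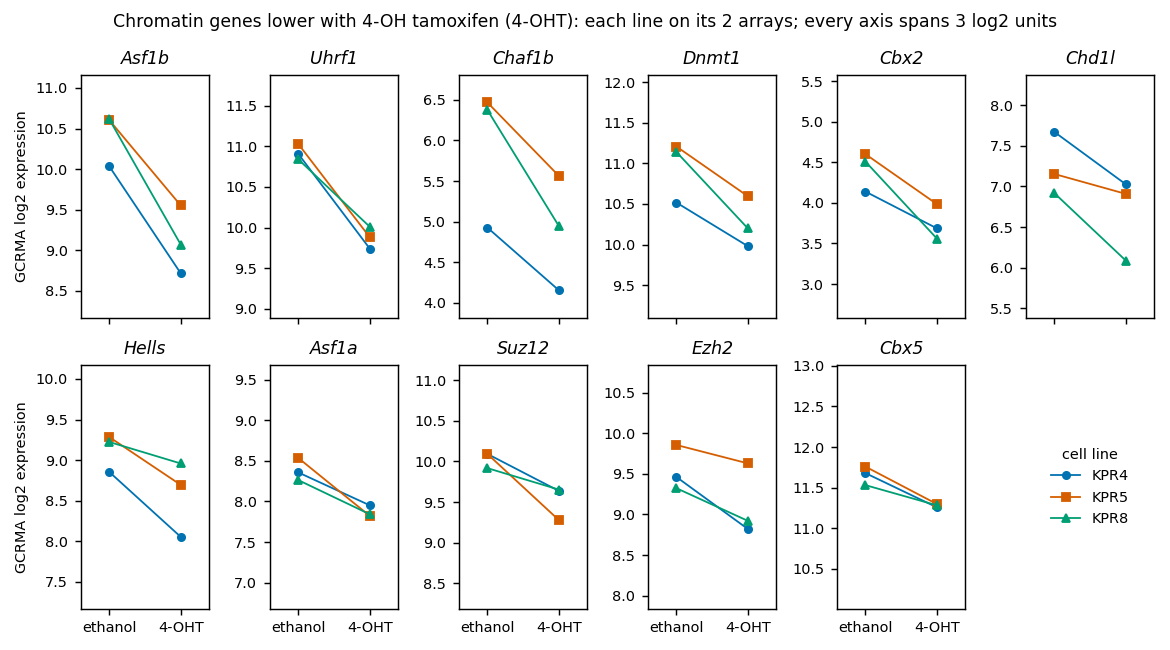
GCRMA log2 level of the 11 chromatin genes that fell, with ethanol and with 4-OH tamoxifen (4-OHT); each line joins the 2 arrays of 1 cell line, and every axis spans 3 log2 units. All segments slope down, steepest on average for Asf1b (-1.30) and shallowest for Cbx5 (-0.38).

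**Figure D3:**
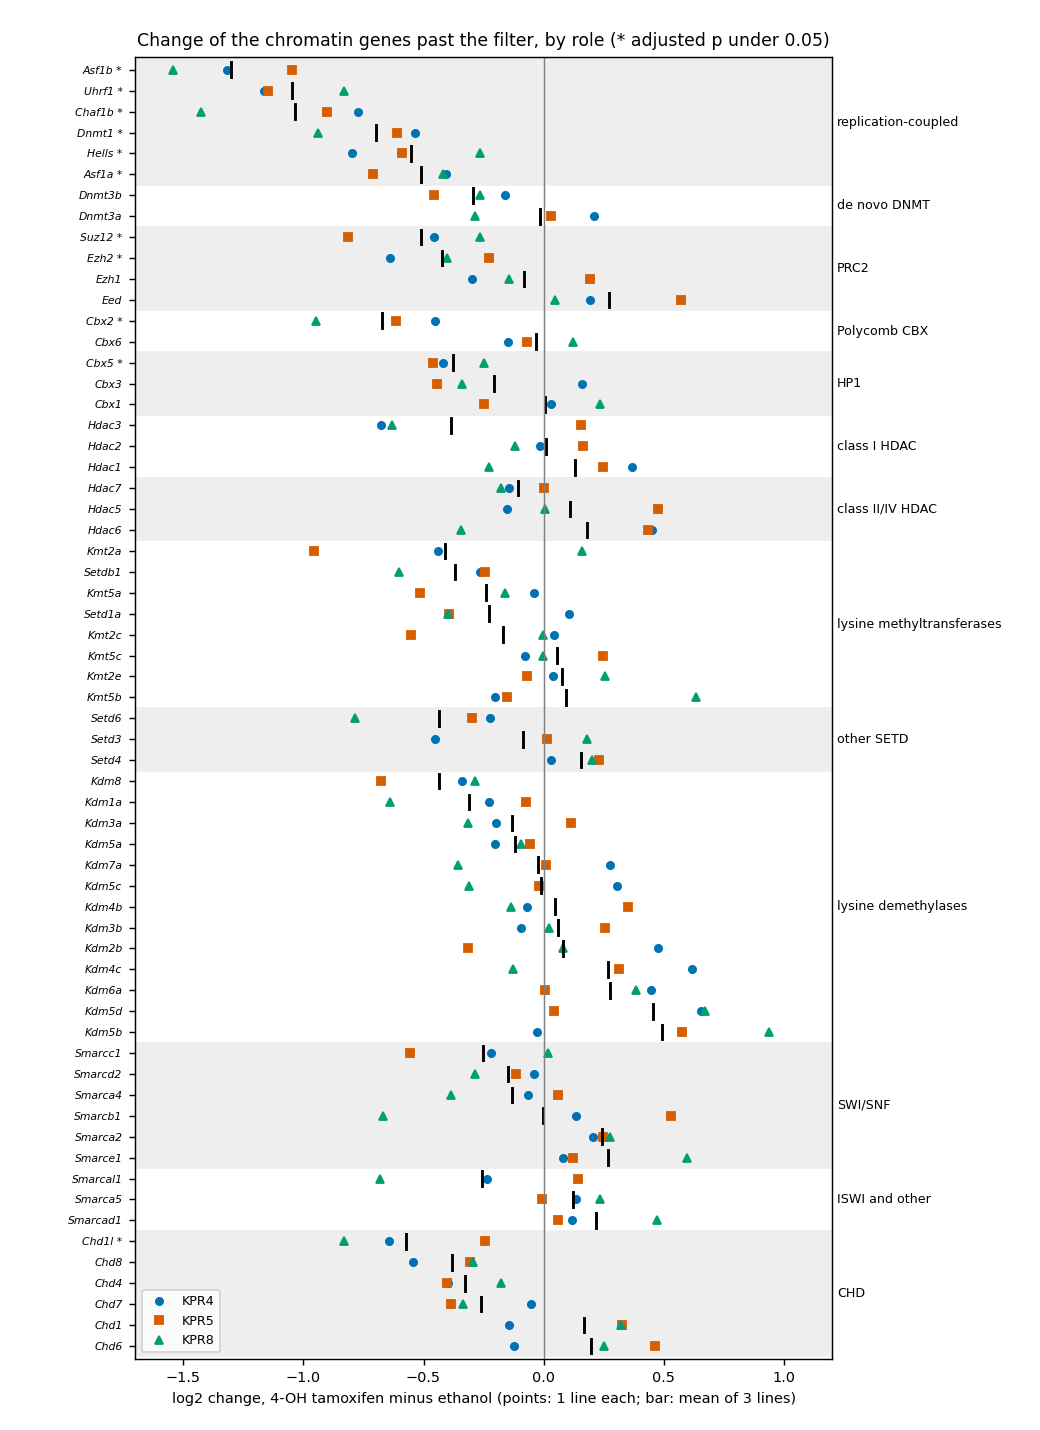
Log2 change (4-OH tamoxifen minus ethanol) of the 62 tested chromatin genes grouped by role, with 1 point per cell line and a bar at the mean; asterisks mark an adjusted p under 0.05. The 6 replication-coupled genes lie left of 0 in every line, while deacetylases, demethylases and SWI/SNF subunits scatter around 0.

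Asf1b, the histone chaperone isoform of proliferating cells, had the largest fall. It read 10.03, 10.60 and 10.61 with ethanol in KPR4, KPR5 and KPR8 and 8.72, 9.55 and 9.07 with the drug. All 3 treated arrays lay below all 3 ethanol arrays. The change was -1.30 ± 0.14 (SE), a level 2.47-fold lower (limma, adjusted p = 1.3e-05), and the line-by-line changes ran from -1.54 to -1.05. Asf1a, the isoform also used outside S phase, went from 8.36, 8.53 and 8.26 to 7.95, 7.82 and 7.84. Its groups did not overlap either. Its change was -0.51 ± 0.15 (adjusted p = 0.030), and a dim second probe set gave 0.05. The Asf1a call ended when any line was left out, with adjusted p = 0.085 without KPR4, 0.178 without KPR5 and 0.067 without KPR8. The difference between the 2 isoforms was not tested.

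Uhrf1 fell by a like amount in each line, from 0.83 to 1.16. Its levels were 10.91, 11.03 and 10.84 with ethanol and 9.74, 9.88 and 10.01 with the drug, so that the highest treated array was below the lowest ethanol array. The change was -1.05 ± 0.12 (adjusted p = 3.6e-05), or 2.07-fold lower, and the second probe set, at a mean of 4.71, gave -0.94. Dnmt1, its partner in maintenance methylation, read 10.52, 11.21 and 11.14 with ethanol and 9.98, 10.60 and 10.20 with the drug. Here the groups overlapped, because KPR4 with ethanol was below KPR5 with the drug, but the fall was seen within every line. The change was -0.70 ± 0.12 (adjusted p = 0.0010) and -0.89 on the second probe set.

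Chaf1b, a subunit of the assembly factor that loads histones on new DNA, was near the filter level in KPR4. It went from 4.93, 6.47 and 6.38 to 4.16, 5.56 and 4.95, a change of -1.03 ± 0.18 (adjusted p = 8.3e-04). KPR4 stood well below the other lines under either treatment, so the groups overlapped while each line fell. Hells, a remodelling ATPase needed for DNA methylation, went from 8.85, 9.28 and 9.22 to 8.05, 8.69 and 8.96. Its fall was smallest in KPR8, -0.26, against -0.80 in KPR4, and the overall change was -0.55 ± 0.15 (adjusted p = 0.018). The call of Hells ended without KPR4 (adjusted p = 0.188) and without KPR5 (adjusted p = 0.075).

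Dnmt3a and Dnmt3b, which set new methylation, did not pass the test. Dnmt3a read 8.23, 7.36 and 7.98 with ethanol and 8.44, 7.39 and 7.69 with the drug, a change of -0.02 with a 95% interval of -0.36 to 0.33. Dnmt3b was near the filter level, between 3.94 and 4.40, and changed by -0.29 (adjusted p = 0.175). Dnmt3l, a cofactor without catalytic activity, stayed between 2.38 and 2.88, where the highest Bacillus background control read 2.84.

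Among Polycomb repressive complex 2 genes, 2 of 4 fell. Suz12, the scaffold, read 10.09, 10.09 and 9.92 with ethanol and 9.64, 9.28 and 9.65 with the drug, without overlap. Its change was -0.51 ± 0.14 (adjusted p = 0.018). The other probe sets of Suz12 above background gave -0.24, -0.30, -0.43 and -0.72, of which the last passed. Ezh2, the catalytic subunit, went from 9.46, 9.86 and 9.32 to 8.82, 9.63 and 8.92, a change of -0.42 ± 0.14 (adjusted p = 0.045). It fell least in KPR5, the line where it was highest. These 2 calls were among the least secure: Suz12 was no longer called without KPR4 (0.051) or KPR5 (0.161), and Ezh2 when any one line was left out (adjusted p 0.058 to 0.355).

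The other 2 subunits did not pass. Eed, which binds the mark the complex writes, read 8.35, 8.75 and 8.43 with ethanol and 8.54, 9.33 and 8.48 with the drug. It was higher with the drug in all 3 lines, by 0.27 on average (95% interval -0.06 to 0.60, adjusted p = 0.238). Ezh1, the paralogue typical of resting cells, was dim, between 3.54 and 4.38, with a change of -0.08 (adjusted p = 0.750). A second Ezh1 probe set at a similar level gave 0.31.

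Chromobox proteins read the marks. Cbx2, which brings Polycomb complexes to chromatin, read 4.14, 4.60 and 4.51 with ethanol and 3.69, 3.98 and 3.56 with the drug, without overlap. The change was -0.67 ± 0.15 (adjusted p = 0.0059), but it was -0.53 with an adjusted p of 0.081 without KPR8, and a second probe set was at background. Only its ethanol arrays carried Cbx2 past the filter, which favours a fall. When all genes were tested without the filter, its limma adjusted p was 0.0094. Cbx6, another Polycomb reader, was between 11.43 and 11.91 and changed by -0.03 (95% interval -0.25 to 0.19). Among the heterochromatin proteins of the HP1 family, Cbx5 went from 11.68, 11.76 and 11.53 to 11.26, 11.30 and 11.28. Its groups did not overlap, and the change was small, -0.38 ± 0.10 (adjusted p = 0.018). The Cbx5 call ended without KPR4 (adjusted p = 0.140) and without KPR5 (adjusted p = 0.106), and of 3 dimmer probe sets above background 1 passed (-0.74) and the others did not (-0.48, adjusted p = 0.246, with KPR8 higher by 0.55, and -0.39, adjusted p = 0.117). Cbx1 changed by 0.01 and Cbx3, on a dim probe set, by -0.21, neither past the threshold.

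Of 6 measured CHD remodellers 1 fell. Chd1l, which acts at sites of DNA damage, read 7.67, 7.15 and 6.92 with ethanol and 7.03, 6.91 and 6.09 with the drug, lower within each line though the groups overlapped. Its change was -0.57 ± 0.17 (adjusted p = 0.031), with adjusted p = 0.137 without KPR4 and 0.154 without KPR8. Chd8, a regulator of beta-catenin targets, went from 9.05, 9.04 and 8.88 to 8.51, 8.74 and 8.58. Its groups did not overlap, but the change of -0.38 did not pass (adjusted p = 0.075). Chd4, the ATPase of the NuRD deacetylase complex, changed by -0.33 and Chd7 by -0.26, while Chd1 and Chd6 had values of 0.17 and 0.20.

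None of the 6 tested deacetylases passed the threshold. Hdac1 and Hdac2, the catalytic subunits of NuRD, Sin3 and CoREST, had levels of 8.74 to 9.25 and 8.86 to 9.14 on the 6 arrays. Their changes were 0.13 (95% interval -0.19 to 0.45) and 0.01 (-0.29 to 0.31). Hdac3, the subunit of the NCoR complexes, read 7.78, 7.95 and 7.68 with ethanol and 7.11, 8.10 and 7.04 with the drug. It was lower in KPR4 and KPR8 by 0.68 and 0.63 and higher in KPR5 by 0.15, so its mean change of -0.38 did not pass (adjusted p = 0.162). Hdac5, Hdac6 and Hdac7 had changes of 0.11, 0.18 and -0.11. Hdac11 was below the filter, at 3.55, 2.54 and 2.74 with ethanol and 4.34, 3.05 and 3.08 with the drug. When all 72 genes were tested it changed by 0.54 ± 0.12 (limma, adjusted p = 0.013), the only chromatin gene called higher there, and at these levels the fold is uncertain.

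Outside Polycomb repressive complex 2, to which Ezh1 and Ezh2 belong, 0 of 8 tested lysine methyltransferases passed, and their changes ran from -0.41 to 0.09. Kmt2a, of the MLL family, was lower in KPR5 by 0.96 and in KPR4 by 0.44 and higher in KPR8 by 0.16 (mean -0.41, adjusted p = 0.169). Setdb1, a writer of heterochromatin marks, had -0.37 (adjusted p = 0.143). Kmt5a, which methylates histone H4 and is needed in S phase and mitosis, was between 10.52 and 11.41, and had -0.24 (adjusted p = 0.180). The others, Setd1a, Kmt2c, Kmt2e, Kmt5b and Kmt5c, lay between -0.23 and 0.09. Of the SETD proteins with other or little known substrates, Setd6 had -0.44 (adjusted p = 0.069), and Setd3 and Setd4 had -0.09 and 0.15.

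Lysine demethylases had 0 of 13 genes past the threshold and a median change of 0.05. The values furthest above 0 belonged to the Kdm5 family, which removes methyl groups from active promoters. Kdm5b read 6.86, 5.92 and 5.98 with ethanol and 6.83, 6.50 and 6.92 with the drug. It was level in KPR4 and higher in the other lines, by 0.57 and 0.94, with a mean of 0.49 ± 0.19 (adjusted p = 0.087). Without KPR4 it was past the threshold (0.76, adjusted p = 0.021), and its second probe set had 0.35 over all lines. Kdm5d, its Y-linked relative, was level in KPR5 and higher by 0.66 and 0.67 in KPR4 and KPR8 (mean 0.46, adjusted p = 0.077), but 2 dimmer probe sets near background gave -0.09 and -0.18. Without KPR5 it was past the threshold (adjusted p = 0.035). Kdm5a and Kdm5c had -0.12 and -0.01.

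At the other end, Kdm8 had -0.43 (adjusted p = 0.073), with treated arrays all below the ethanol arrays, and Kdm1a, the CoREST demethylase, had -0.31 (adjusted p = 0.118). Kdm4c and Kdm6a had 0.27 and 0.28. Kdm2b, which guides a variant Polycomb complex to CpG islands, had 0.08, and Kdm3a, Kdm3b, Kdm4b and Kdm7a had changes between -0.13 and 0.06.

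The SWI/SNF subunits and the ISWI and related ATPases did not move past the threshold: 0 of 6 and 0 of 3. The ATPase Smarca4 had levels between 8.64 and 9.03 and a change of -0.13 (95% interval -0.45 to 0.19). Its alternative Smarca2 was higher in each line, by 0.21, 0.25 and 0.28, a mean of 0.24 that did not pass (adjusted p = 0.318). Smarce1 was higher in each line too (0.27, adjusted p = 0.163), although a second probe set gave -0.21. Smarcc1 and Smarcd2 had -0.25 and -0.15. Smarcb1, the core subunit, had 0.14, 0.53 and -0.67 in KPR4, KPR5 and KPR8 on its bright probe set and a mean of 0.00, and -0.54, -0.33 and -0.52 on a dimmer one. Smarca5, the main ISWI ATPase, had 0.12 on one bright probe set and -0.31 on another of nearly the same level. Smarcad1 and Smarcal1 had 0.22 and -0.26.

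**Figure D4:**
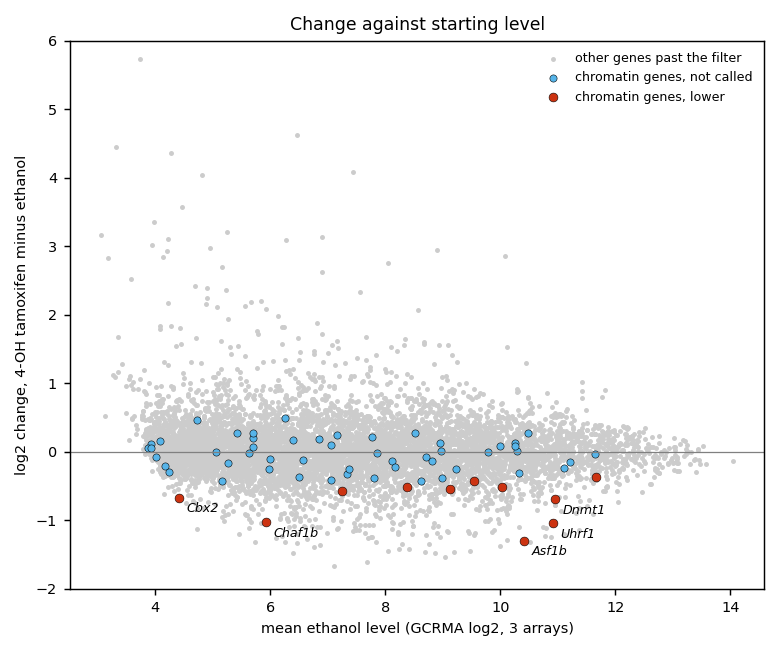
Log2 change against the mean ethanol level (GCRMA log2, 3 arrays) for all 7644 tested genes (grey), chromatin genes not called (blue) and chromatin genes that fell (red). The fallen genes span ethanol levels from 4.42 (Cbx2) to 11.66 (Cbx5), and changes of chromatin genes run from -1.30 to 0.49.

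The remaining 10 chromatin genes were below the filter: Hdac9, Hdac11, Dnmt3l, Kmt2d, Setd7, Smarca1, Smarcd1, Smarcd3, Cbx7 and Cbx8. Kmt2d and Setd7 were within background, at no more than 2.34 and 2.53. Cbx8, a Polycomb reader, was between 3.63 and 4.13, and Smarca1, an ISWI ATPase, between 3.04 and 3.95. Probe sets that do not respond cannot be told from silent genes on these arrays.

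Partner genes of the same complexes, listed separately from the named families, gave the wider picture. Of 118 listed genes 87 had a probe set and 77 were tested, and 17 fell (22.1%) and 3 rose (3.90%), against 8.94% and 10.5% of all tested genes. In the list of histone chaperones, assembly factors and the centromeric histone Cenpa, 5 of 11 fell: Nasp by 1.02, Anp32e by 0.89, Cenpa by 0.85 and Mis18a by 0.75 on the log2 scale, with Supt16 at -0.44. Nasp carries histones H3 and H4, Anp32e removes the variant H2A.Z, and Mis18a takes part in loading Cenpa at centromeres. Hat1, which acetylates new histone H4, fell by 0.78. Among other methyltransferases and their cofactors 5 of 13 fell, including Wdr5 (-0.78) and Prmt5 (-0.74). Dimmer probe sets of Nasp, Anp32e and Wdr5 gave smaller values that did not pass, -0.25, -0.34 and -0.40. Without KPR5 the partner genes lower were 11 and without KPR8 10.

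The partner gene that stood furthest apart was Scmh1, a component of Polycomb repressive complex 1. It rose in each line, by 1.64, 2.03 and 1.78, or 3.52-fold overall (1.82 ± 0.17, adjusted p = 3.6e-06). Its levels were 6.08, 6.50 and 6.04 with ethanol and 7.72, 8.53 and 7.83 with the drug, far from overlap. Rnf2, the ubiquitin ligase of that complex, rose by 0.52 (adjusted p = 0.032) on its brightest probe set, but lost the call without KPR4 or KPR8, and 3 other probe sets gave values slightly below 0. Prmt2 rose by 0.43 (adjusted p = 0.043), with no call when any line was left out. Accessory genes of Polycomb repressive complex 2 had 0 of 5 past the threshold.

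Between lines, 27 of the 62 tested chromatin genes differed in limma's F-test (43.5%), where 42.0% of all tested genes did. The share was thus near that of all genes. The widest range was that of Chaf1b, with line means of 4.54 in KPR4, 6.02 in KPR5 and 5.66 in KPR8, 2.78-fold from lowest to highest (adjusted p = 2.3e-04). Kmt5b, which methylates histone H4, ran from 7.84 in KPR4 to 6.55 in KPR8, and Kdm5a, a promoter demethylase, spanned 1.18 with KPR8 lowest at 5.82. Kdm5d was at 4.17 in KPR5 against 5.38 and 5.30 in KPR4 and KPR8. Dnmt3a was highest in KPR4 (8.33) and lowest in KPR5 (7.38). Of the 27, KPR4 was highest for 11, KPR5 for 9 and KPR8 for 7. The same split over all genes was not counted. Asf1b, Dnmt1, Chaf1b and Eed were lowest in KPR4 and highest in KPR5, Hells was lowest in KPR4 and highest in KPR8, and Ezh2 was lowest in KPR8 and highest in KPR5. Uhrf1 did not differ past the threshold (adjusted p = 0.725). Each line mean rests on 2 arrays, and leaving out 1 line left 13 to 16 chromatin genes that differed between the other 2. The share of all genes in those fits was not counted.

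**Figure D5:**
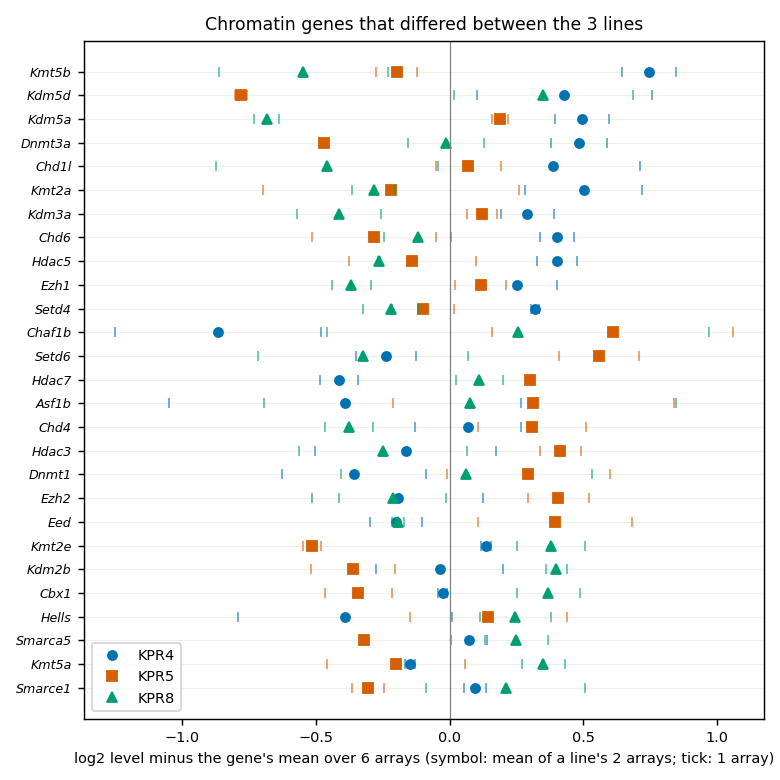
Level of the 27 chromatin genes that differed between the lines, as log2 level minus the gene's mean over 6 arrays; symbols are means of a line's 2 arrays and ticks single arrays. Chaf1b spans the widest range, 1.47, with KPR4 lowest.

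Array-wide values were checked in the same samples. Array medians lay between 4.56 and 4.63, and 57.2% to 57.6% of probe sets were at log2 4 or above. Of 15 listed p53 targets 14 rose, with a median change of 2.15. Of 23 measured genes of replication and mitosis 18 fell and 0 rose, with medians over all 23 of -1.32 in KPR4, -0.74 in KPR5 and -1.06 in KPR8. All 62 tested chromatin genes had medians of -0.13, -0.06 and -0.20 in the same order. The 11 fallen ones, whose choice as lower fixes the sign, had -0.64, -0.62 and -0.83. In cell populations, fewer cycling cells and less RNA per cell cannot be told apart, and the part of cell cycle change in the falls was not tested. The gap between the Gapdh control probes at the 3′ and 5′ ends, which reflects RNA integrity, changed by 0.24, 0.29 and -0.40 in the same order, and its part was not tested. The epithelial keratins Krt8 and Krt18 were at 12.09 or above on all arrays, and of 6 epithelial markers Epcam fell by 0.37 while Cldn4 and Cdh1 rose by 0.89 and 0.30. Of 5 alveolar markers, Nkx2-1, Sftpb and Sftpc did not exceed 3.13, whereas Abca3 read 6.89 to 8.32 and Aqp5 7.23 to 10.11. Ptprc, which marks all leukocytes, was at most 2.05, but the listed leukocyte markers reached 9.23 at their highest. Of 3 tested leukocyte markers 1, Cd68, rose by 1.02. The 5 endothelial markers were at most 4.01. Fibroblast markers reached 7.73 at their highest. With the drug 0 of 3 tested fibroblast markers passed the threshold, while all 3 differed between the lines. The part of these markers in the falls was not tested.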

How the data were processed

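Gene expression was measured in 6 RNA samples, 1 per line and treatment, each on 1 array. Per the labels, 100 ng of Trizol-extracted RNA went through a NuGEN Ovation amplification. The deposited table gives a log2 level for each probe set, and the submitters' processing notes name GCRMA 2.20.0 and R 2.11.0. Normalization between arrays can hide a change shared by most genes. No detection calls came with the values; 27 Bacillus control probe sets, between 1.13 and 2.84, give the background. Scanner files were not used here.

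The table holds 22690 probe sets, and 20380 have 1 gene symbol in GEO's platform annotation. Probe sets at log2 4 or above on at least 3 arrays were kept, 1 per gene with the highest mean, leaving 7644 genes. limma 3.58.1 in R 4.3.3 fitted cell line and treatment with a variance trend across all genes, with 2-sided tests and Benjamini-Hochberg adjustment over all of them (threshold 0.05). Line differences used limma's F-test in that fit. The line pairs the arrays, since both treatments were given to the same cells; across genes, the 2 arrays of a line deviated together (correlations of 0.876, 0.737 and 0.761 for KPR4, KPR5 and KPR8). With 2 residual degrees of freedom and a prior of 12.9, each p leans on the spread of other genes, and the labels name no replicate cultures within a line, so responses of single lines were not compared by a test. Errors are standard errors from the fit. The test was tried on simulated data for the treatment comparison over 7644 genes. Of 100 genes changed by log2 0.5 it recovered 42%, and of 100 changed by log2 1 it recovered 97%. Of 145 genes called there, 6 had not been changed. Noise was drawn independently from the fitted variances, and fewer genes were changed than were called in the data. The recovery rates may therefore not hold for the data. The number of arrays limits the precision.

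All 72 genes are named by role, with array values for those past the threshold, for paralogues that moved the other way and for some others picked after their values were seen. Partner genes are the 5 largest falls and rises; Mis18a, Supt16 and Prmt5 were added after their values were seen. The members and lists were chosen with earlier results of these data known. Alternatives changed the filter, the probe sets, the line term, the variance model, the scaling or the lines used.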

Additional observations from a re-analysis of the deposited data

Results flagged for a closer look

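Smarcb1, the core SWI/SNF subunit, moved in opposite directions in 2 lines by at least log2 0.5 on its brightest probe set: the change was 0.53 in KPR5 and -0.67 in KPR8. With 1 array per line and treatment this difference was not tested. The dimmer Smarcb1 probe set, at a mean of 7.46, had -0.54, -0.33 and -0.52 in KPR4, KPR5 and KPR8.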

How the results depend on the processing

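The 11 fallen chromatin genes kept their direction under all of the settings that changed the fit, the filter, the scaling or the lines. For most settings this was fixed in advance. The filter and model settings leave the mean change as it is, and all 11 fell in every line. The number of chromatin genes called lower was 5 to 7 when 1 line was left out, 6 with ribosomal protein scaling and 0 with no replicate block. It was 8 to 11 under the filter, probe set mean, trend, robust and quantile settings. Those called at 5 without KPR4 and 7 without KPR8 were all among the 11, and 6 of 7 without KPR5, the other being Hdac3. Chromatin genes higher numbered 1 with no filter (Hdac11) and 0 to 1 without 1 line. Genes differing between lines numbered 13 to 16 with 1 line left out. Partner genes lower numbered 11 with ribosomal protein scaling, 0 with no replicate block and 10 to 14 with 1 line left out; those higher numbered 1 with no filter, 0 with no replicate block and 1 to 2 with 1 line left out. Among the named genes refitted under each setting, signs reversed on other probe sets: Asf1a 0.0533, Cbx5 0.140, Suz12 0.0116, Kdm5d -0.0919 and -0.183, and Rnf2 -0.0934, -0.0722 and -0.0890 on 3 of its probe sets. Those of Cbx5, Suz12 and Kdm5d had means of 2.21, 1.79, 2.79 and 2.14, below the highest Bacillus control (2.84). The cause of the reversals was not tested.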
